A study of Mus musculus with 10 samples.

Results

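The genes described here are 8 members of the neurotrophin system, chosen by name as rows of a table of 24421 genes. They are the ligands Bdnf and Ntf3, the Trk receptor tyrosine kinases Ntrk2 and Ntrk3, the p75 receptor Ngfr, and the sortilin-family receptors Sort1, Sorcs2 and Sorcs3. Expression was measured by RNA-seq in the ventral hippocampus (vHpc) of ovariectomized (OVX) female C57BL/6 mice that were either wild type (WT) or heterozygous for a knocked-in Met allele of BDNF (Het-Met). All mice had their ovaries removed at 70 to 80 days of age, recovered for 2 weeks, and then drank 0.1% ethanol for 6 weeks, either alone (vehicle) or with 300 nM 17β-estradiol (E2, 0.7 µg per day). There were 2 libraries from vehicle-treated WT mice (replicates 1 and 3), 2 from E2-treated WT mice (replicates 1 and 2), 3 from vehicle-treated Het-Met mice and 3 from E2-treated Het-Met mice, and the RNA in each library was pooled from 2 animals. The spread between libraries is therefore a spread between pools, and no intact female was among the libraries.

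Neurotrophins are secreted growth factors that are made as longer precursors and cut by furin and the prohormone convertases. Mature BDNF acts on TrkB, the product of Ntrk2, and mature neurotrophin-3, the product of Ntf3, acts mainly on TrkC, the product of Ntrk3, to support neuronal survival, dendrite growth and synaptic strength. The precursors and the free BDNF prodomain bind instead to p75 together with sortilin-family receptors, and the Met substitution lies in that prodomain, where it is known to lower the activity-dependent secretion of BDNF. In the hippocampus, BDNF is made chiefly by excitatory neurons, and the Ntf3 transcript is best known from the dentate gyrus and CA2.

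The libraries held 19820184 to 23267410 reads on genes, recovered from the deposited CPM values (reads scaled to the total of the library), so 1 read was worth 0.0430 to 0.0505 CPM. Levels between libraries were compared in CPM, and levels between genes only per kb of exon. A gene was called when limma's adjusted p was under 0.05 and the fold change was above 1.3. The summed neuron markers lay between 6845 and 7429 CPM in every library, and those of hippocampal CA1 and CA3 pyramidal cells between 694 and 827 CPM and between 476 and 507 CPM. Choroid plexus transcripts varied far more, from 148 to 3253 CPM, and all 10 of those markers had unadjusted p under 0.05 for higher levels with E2 in WT mice and for lower levels in E2-treated Het-Met than in E2-treated WT mice. All 10 also had such a p for higher levels in Het-Met than in WT mice under vehicle, and 9 for lower levels with E2 in Het-Met mice. In tissue RNA, fewer cells of a type and less RNA per cell cannot be told apart.

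Ntf3 had the largest fitted log2 difference between genotypes of the 8 members under vehicle and over both treatments, and Ngfr under E2. Its 250 bases before an annotated start on the minus strand, at chr6:126164961-126165210 of GRCm38 (mm10), contain no annotated exon base, and those before 1 start of Bdnf on the plus strand, at chr2:109692186-109692435, are the only Bdnf window with the CRE core. Both are shown because Bdnf and Ntf3 are the ligands whose levels are compared below, and because activity-driven Bdnf transcription is known to work through cAMP response elements. RefSeq sequences of GRCm38.p6 were read 5′ to 3′ along each gene, with capitals marking GGGCGG (the SP1 box) in Ntf3 and CGTCA, which is TGACG on the other strand, in Bdnf.
Ntf3: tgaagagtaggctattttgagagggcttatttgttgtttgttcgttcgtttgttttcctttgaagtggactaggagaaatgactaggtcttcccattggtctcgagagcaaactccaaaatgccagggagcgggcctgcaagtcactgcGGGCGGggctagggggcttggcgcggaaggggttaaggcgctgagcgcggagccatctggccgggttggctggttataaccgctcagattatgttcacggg
Bdnf: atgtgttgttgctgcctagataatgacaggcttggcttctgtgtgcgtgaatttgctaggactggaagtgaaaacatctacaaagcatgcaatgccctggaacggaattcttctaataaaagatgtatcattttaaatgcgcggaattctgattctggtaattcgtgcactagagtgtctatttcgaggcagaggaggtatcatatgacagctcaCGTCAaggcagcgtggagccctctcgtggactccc

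The promoter table held 12 windows of 5 members. None of the 12 contained, on either strand, the whole CRE (TGACGTCA, present in 1.55% of 32851 windows of the same length), the palindromic estrogen response element (0.0639%) or TATAAA (12.4%). The core TGACG, which the whole CRE also contains, occurred in 17.8% of all windows and GGGCGG in 32.7%. The E-box CACGTG (6.02%) occurred in the other Ntf3 window. These letter matches describe the windows only.

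The levels per length spanned a wide range across the 8 genes. Sort1, which encodes the sorting receptor sortilin, had the most transcript per kb of exon, 103.6 ± 6.08 CPM per kb (SD, n = 10 libraries), followed by Ntrk2 with 37.2 ± 3.90 CPM per kb. Sorcs2 (9.21 ± 0.324 CPM per kb), Sorcs3 (7.23 ± 0.750), Bdnf (5.93 ± 0.751), Ntf3 (4.31 ± 1.09) and Ntrk3 (4.04 ± 0.298) came next, and Ngfr was lowest with 0.752 ± 0.138 CPM per kb. The ranges of the neighbours Sorcs3 and Bdnf, Bdnf and Ntf3, and Ntf3 and Ntrk3 overlapped over the libraries, whereas those of each other neighbouring pair were separate. Within libraries, Sorcs3 was above Bdnf in 10 of 10, Bdnf above Ntf3 in 8 and Ntf3 above Ntrk3 in 6, so the order of the last pair was the least steady. The exon lengths join all annotated transcripts of a gene, from 1.714 kb for Ntf3 to 30.17 kb for Ntrk3, so a gene with many isoforms can appear low on this scale.

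**Figure D1:**
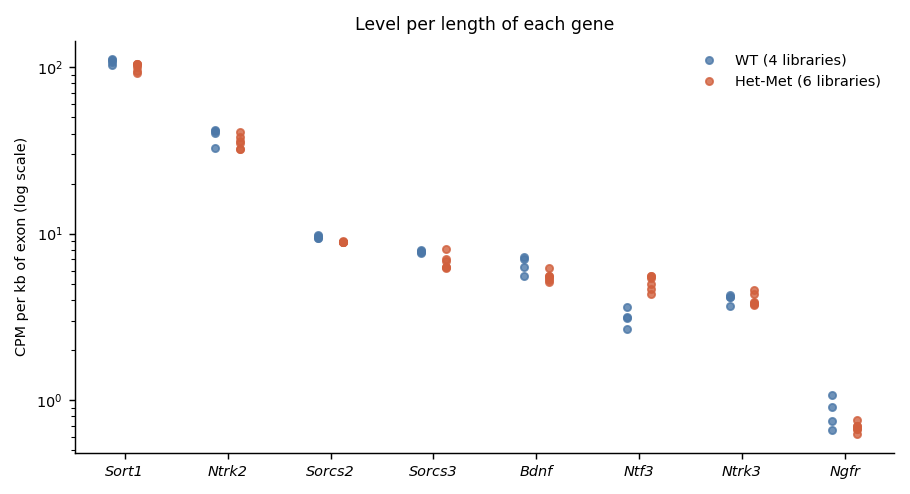
Level of each of the 8 genes in CPM per kb of exon, on a log axis, with 1 point for each of the 4 WT and 6 Het-Met libraries. Sort1 lies highest, near 104 CPM per kb, Ngfr lies lowest, below 1.08 CPM per kb, and only for Ntf3 are the Het-Met points wholly above the WT points.

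Between genotypes, Ntf3 was higher in Het-Met mice. Ntf3, at chr6:126101412-126166910, measured 5.41 and 4.61 CPM in vehicle-treated WT mice and 5.34 and 6.23 CPM in E2-treated WT mice. In Het-Met mice it measured 9.25, 9.54 and 9.51 CPM under vehicle and 7.98, 8.53 and 7.40 CPM under E2. All 6 Het-Met libraries lay above all 4 WT libraries, as did those of 2.63% of all genes tested. The means were 8.70 ± 0.883 CPM (SD, n = 6) in Het-Met and 5.40 ± 0.664 CPM (SD, n = 4) in WT, from 93 to 205 reads per library. Over both treatments the log2 fold change of CPM + 0.5 was 0.64 (SE 0.09, 95% interval 0.44 to 0.84), a fold of 1.56, and Ntf3 was called, with an adjusted p of 0.0234 and the 4th smallest p among 15081 genes tested.

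Ntf3 was the only 1 of the 8 members called over both treatments, against 0.0265% of all genes tested. The call depended on single libraries. It held when vehicle-treated WT replicate 1, vehicle-treated Het-Met replicate 2 or E2-treated Het-Met replicate 3 was left out. It was lost without any of the other 7, with adjusted p of 0.0508 without E2-treated Het-Met replicate 1, 0.0534 without vehicle-treated Het-Met replicate 1, 0.0805 without E2-treated WT replicate 2, 0.0840 without vehicle-treated Het-Met replicate 3, 0.101 without E2-treated Het-Met replicate 2, 0.173 without vehicle-treated WT replicate 3 and 0.257 without E2-treated WT replicate 1. The log2 fold change stayed between 0.59 and 0.695 in those 10 fits.

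Within treatments, the Ntf3 difference was 0.85 on the log2 scale under vehicle (SE 0.13, adjusted p = 0.0949, 2nd smallest p of all genes tested), and DESeq2 on the recovered reads called it (0.889, adjusted p = 0.00351). It was 0.43 under E2 (SE 0.13, adjusted p = 0.335). The E2-treated and vehicle-treated WT libraries overlapped, and the log2 difference between them was 0.19 (SE 0.15). In Het-Met mice, all 3 E2-treated libraries lay below all 3 vehicle-treated libraries (5.11% of all genes tested), with a log2 difference of −0.23 (SE 0.12, adjusted p = 0.923). The genotype-by-E2 interaction for Ntf3 was −0.42 (SE 0.19, adjusted p = 0.869), so the 2 treatments were not shown to differ in their genotype effect. The summed levels of the 5 CA2 markers were also higher in every Het-Met library (253 to 307 CPM) than in any WT library (221 to 249 CPM). Taken singly over both treatments, 3 of the 5 were higher in Het-Met mice, 2 with unadjusted p under 0.05 in limma, and 2 were lower. Under vehicle, 4 of the 5 were higher and 1 lower, and 2 of the higher ones had such a p (10.7% of all genes tested). Under E2, 2 of the 5 were higher and 3 lower. With E2 in Het-Met mice, 1 was higher and 4 were lower. The summed levels of the 6 dentate granule cell markers ranged from 305 to 467 CPM in Het-Met and from 305 to 335 CPM in WT. Singly, 5 of the 6 were higher and 1 lower under vehicle, 2 of the higher ones with such a p. Under E2, 3 were higher and 3 lower. Choroid plexus markers summed to 1456 to 3253 CPM in vehicle-treated and 258 to 1538 CPM in E2-treated Het-Met mice, against 148 to 1072 CPM in vehicle-treated and 1888 to 2477 CPM in E2-treated WT mice, so they were higher than in WT under vehicle, as Ntf3 was, and lower than in WT under E2, where Ntf3 was higher. The part of these markers in the Ntf3 differences was not tested.

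**Figure D2:**
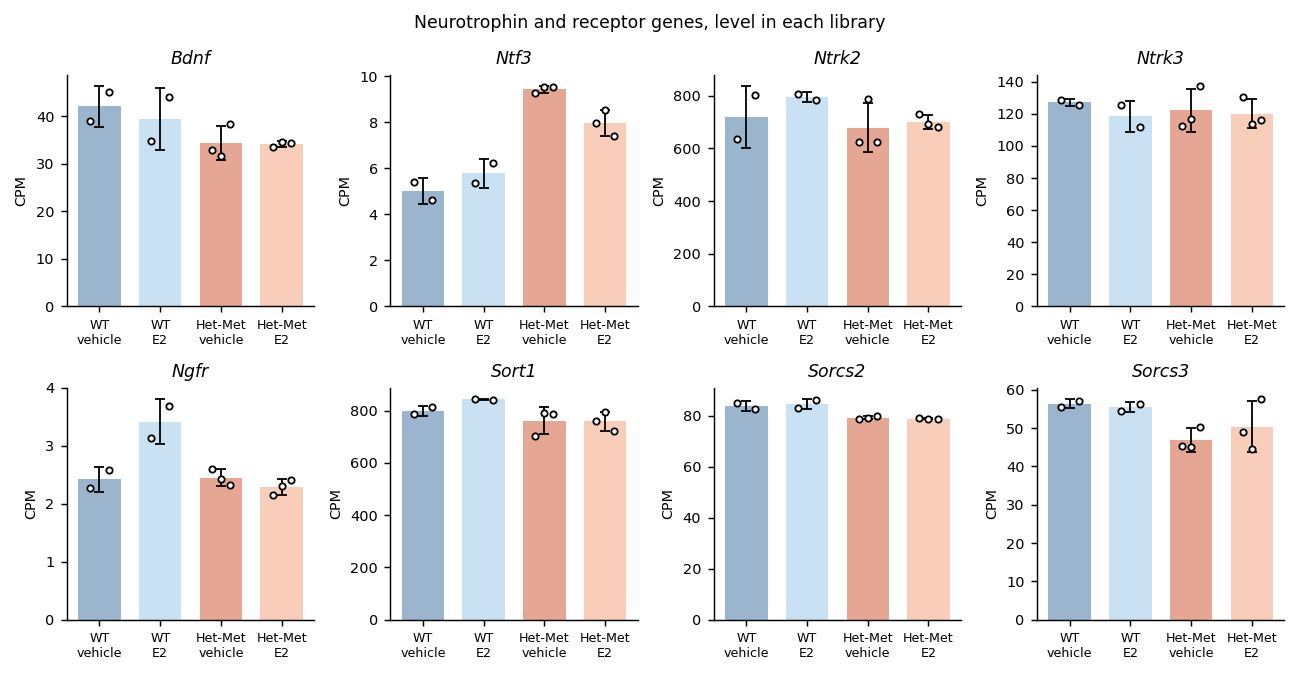
Level in CPM of the 8 genes in the 4 groups, with bars at the group mean, error bars of 1 SD (n = 2, 2, 3 and 3) and a point for each library. The Ntf3 points of the Het-Met groups lie at 7.40 to 9.54 CPM, above the WT points at 4.61 to 6.23 CPM. In the other panels the WT and Het-Met points overlap, except those of Sorcs2, which lie at 82.5 to 86.0 CPM in WT and 78.7 to 79.8 CPM in Het-Met mice.

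Bdnf, the gene that carries the Met allele in these mice, was lower on average in Het-Met mice without passing the test. Bdnf, at chr2:109674700-109727007, measured 39.0 and 45.2 CPM in vehicle-treated WT, 34.7 and 44.0 CPM in E2-treated WT, 32.9, 31.7 and 38.4 CPM in vehicle-treated Het-Met, and 33.5, 34.7 and 34.4 CPM in E2-treated Het-Met mice. The vehicle-treated Het-Met libraries all lay below the vehicle-treated WT libraries, in a comparison where 24.7% of all genes tested did not overlap. The E2-treated groups did not overlap either (35.8% of all genes tested), but only narrowly. E2-treated WT replicate 1 measured 34.73 CPM and the highest E2-treated Het-Met library 34.67 CPM. Over both treatments the genotypes overlapped, since vehicle-treated Het-Met replicate 3, at 38.4 CPM, lay above that WT library. The log2 fold change over both treatments was −0.24 (SE 0.08, 95% interval −0.41 to −0.07, adjusted p = 0.167), from means of 40.7 ± 4.82 CPM (SD, n = 4) and 34.3 ± 2.29 CPM (SD, n = 6). It was −0.29 under vehicle (SE 0.11, adjusted p = 0.418) and −0.19 under E2 (SE 0.11, adjusted p = 0.511). Under E2 it was −0.02 without E2-treated WT replicate 2 and −0.36 without E2-treated WT replicate 1. Over both treatments it was −0.16 without E2-treated WT replicate 2, and under vehicle −0.19 without vehicle-treated WT replicate 3. E2 gave −0.10 in WT (SE 0.12) and 0.00 in Het-Met mice (SE 0.10). The interval in Het-Met, −0.21 to 0.21, includes differences of up to about 1.16-fold. Reads per gene do not separate the WT allele from the Met allele, so the Bdnf level does not check the genotype labels.

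The ratio of the ligands' reads also did not overlap between genotypes. The number of Bdnf reads per Ntf3 read was 7.21 and 9.81 in vehicle-treated WT, 6.50 and 7.06 in E2-treated WT, 3.55, 3.33 and 4.04 in vehicle-treated Het-Met, and 4.20, 4.07 and 4.65 in E2-treated Het-Met mice. The means were 7.64 ± 1.47 (SD, n = 4) in WT and 3.97 ± 0.473 (SD, n = 6) in Het-Met mice. This ratio combines the Ntf3 and Bdnf values above, was formed after they were seen and was not tested.

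**Figure D3:**
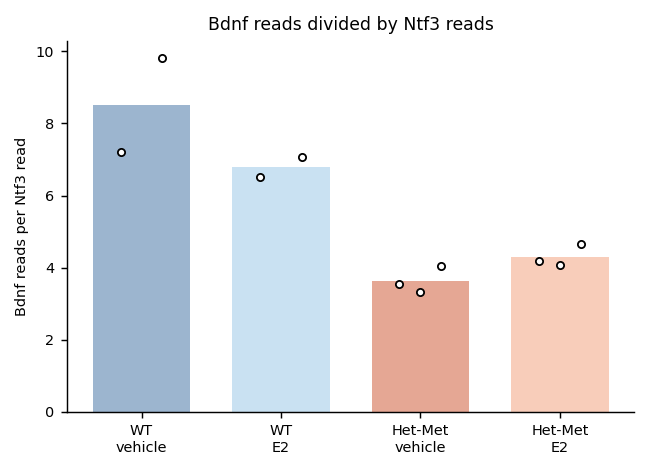
Bdnf reads per Ntf3 read in each library, by genotype and treatment, with bars at the group mean and 1 point per library. The 4 WT libraries lie at 6.50 to 9.81 and the 6 Het-Met libraries at 3.33 to 4.65.

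The genes whose profiles over the 10 libraries came closest to those of the ligands were found by the root mean square (RMS) difference of centred log2(CPM + 0.5). Nearest to Ntf3 were Neurl2, Dyx1c1, Gm11681, Pantr1 and Gabra2, with RMS differences of 0.144 to 0.181 against a spread of 0.342 for Ntf3 about its own mean. Of these, Gabra2, which encodes the α2 subunit of the GABA-A receptor, measured 96.9 ± 7.62 CPM in Het-Met (SD, n = 6) and 67.0 ± 7.13 CPM in WT (SD, n = 4), a log2 fold change of 0.53 (SE 0.07, adjusted p = 0.00453). The other 4 were not called, with adjusted p from 0.0948 to 0.183, and Dyx1c1 and Gm11681 overlapped between genotypes. All 5 were picked for likeness to a profile that holds the genotype difference, so their direction is no separate evidence. Nearest to Bdnf were Lima1, Dusp16, 9030025P20Rik, Pard3 and Scn3a, with RMS differences of 0.0779 to 0.0881 against 0.165 for Bdnf itself. None of these 5 was called between genotypes, with adjusted p from 0.196 to 0.602. Likeness over 10 libraries describes these libraries only.

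Neither Trk receptor was called in any comparison. Ntrk2, at chr13:58806569-59133970, measured 635 and 804 CPM in vehicle-treated WT, 809 and 782 CPM in E2-treated WT, 624, 787 and 626 CPM in vehicle-treated Het-Met and 732, 692 and 680 CPM in E2-treated Het-Met mice. The vehicle-treated libraries spread widely in both genotypes, with 1 of the 3 Het-Met libraries near the higher WT level, and they overlapped between genotypes. The log2 fold change between genotypes over both treatments was −0.13 (SE 0.08, adjusted p = 0.394), with a 95% interval of −0.29 to 0.03. It was −0.05 without vehicle-treated WT replicate 3 and −0.22 without vehicle-treated WT replicate 1. Under E2, all 3 Het-Met libraries lay below both WT libraries, in a comparison where 35.8% of all genes tested did not overlap. The log2 difference there was −0.18 (SE 0.11, adjusted p = 0.514). Ntrk3, at chr7:78175959-78738012, measured 129 and 126 CPM in vehicle-treated WT, 125 and 112 CPM in E2-treated WT, 112, 117 and 138 CPM in vehicle-treated Het-Met and 131, 114 and 116 CPM in E2-treated Het-Met mice. Its groups overlapped between genotypes and the log2 fold change was −0.02 (SE 0.06, 95% interval −0.16 to 0.12), an interval that includes folds from 0.895 to 1.08. The deposited values are per gene, so the kinase-bearing and truncated Trk isoforms, which signal differently, are summed.

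Ngfr, the death-domain receptor p75, was near the lower end of the measured range, with 44 to 86 reads per library. Ngfr, at chr11:95568818-95587735, measured 2.27 and 2.58 CPM in vehicle-treated WT, 3.14 and 3.70 CPM in E2-treated WT, 2.61, 2.42 and 2.32 CPM in vehicle-treated Het-Met and 2.15, 2.30 and 2.42 CPM in E2-treated Het-Met mice. The E2-treated WT libraries were above all 8 others. The log2 fold change with E2 in WT was 0.42 (SE 0.18, adjusted p = 0.9999), and between genotypes under E2 it was −0.49 (SE 0.16, adjusted p = 0.342). The interaction was −0.50 (SE 0.23, adjusted p = 0.898), and none of these passed the test. Counting error alone gives a coefficient of variation of 11.3% in the E2-treated WT group and 14.1% in vehicle-treated WT. Summed pericyte and meningeal fibroblast markers were also highest in E2-treated WT mice, 468 to 482 CPM against 352 to 383 CPM in vehicle-treated WT and 347 to 461 CPM in Het-Met mice. Taken singly, 5 of these 8 markers were higher and 3 lower with E2 in WT mice. Between genotypes under E2, 4 were higher and 4 lower in Het-Met mice. Choroid plexus markers summed to 1888 to 2477 CPM in E2-treated WT against 148 to 1072 CPM in vehicle-treated WT. In vehicle-treated Het-Met mice the choroid plexus sum was 1456 to 3253 CPM, while Ngfr measured 2.32 to 2.61 CPM. Their part in the Ngfr values was not tested.

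Among the sortilin-family receptors, all 3 had lower mean levels in Het-Met mice, and none was called. Sorcs3, at chr19:48206025-48805505, measured 55.5 and 57.2 CPM in vehicle-treated WT, 54.5 and 56.3 CPM in E2-treated WT, 45.2, 45.0 and 50.4 CPM in vehicle-treated Het-Met and 49.0, 44.5 and 57.6 CPM in E2-treated Het-Met mice. E2-treated Het-Met replicate 3, at 57.6 CPM, was the highest of all 10 libraries, while the other 5 Het-Met libraries were below every WT library. The log2 fold change over both treatments was −0.21 (SE 0.07, 95% interval −0.35 to −0.06, adjusted p = 0.176).

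Sorcs2, at chr5:36017180-36398139, encodes the receptor best known for binding the BDNF prodomain with p75. It measured 85.1 and 82.5 CPM in vehicle-treated WT, 83.1 and 86.0 CPM in E2-treated WT, 78.7, 79.0 and 79.8 CPM in vehicle-treated Het-Met and 78.9, 78.7 and 78.8 CPM in E2-treated Het-Met mice. All 6 Het-Met libraries lay below all 4 WT libraries, which 1.72% of all genes tested also showed, but the step was small, a log2 fold change of −0.09 (SE 0.05, 95% interval −0.19 to 0.01, adjusted p = 0.332). The 6 Het-Met values had a coefficient of variation of 0.520%, below the 2.46% that counting error alone gives. Sort1, at chr3:108284082-108361511, measured 785 and 813 CPM in vehicle-treated WT, 844 and 841 CPM in E2-treated WT, 703, 792 and 789 CPM in vehicle-treated Het-Met and 760, 794 and 721 CPM in E2-treated Het-Met mice. The genotypes overlapped only between vehicle-treated WT and the highest Het-Met libraries, and the log2 fold change was −0.11 (SE 0.05, adjusted p = 0.293). Psapl1 and Mir7689 lie on the other strand within Sorcs2 and had at most 0.00953 CPM on average.

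Counted over the 8 members, the genotype comparison gave 4 with unadjusted p under 0.05 over both treatments (Ntf3 higher, Bdnf, Sort1 and Sorcs3 lower), where 16.6% of all genes tested had such a p. Groups did not overlap for 2 members, Ntf3 and Sorcs2, against 4.36% of all genes. Under vehicle, 0 were called by limma (0.00663% of all genes), 3 had unadjusted p under 0.05 (10.7%) and 4 did not overlap (24.7%). Under E2, 0 were called (0.0265%), 2 had unadjusted p under 0.05 (11.7%) and 6 did not overlap (35.8%). The comparisons under vehicle and under E2 use different libraries, while the 1 over both treatments uses all of them again.

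For E2, limma called 0 of the 8 members in WT mice (0.0133% of all genes tested), 0 in Het-Met mice (0.0%) and 0 over both genotypes (0.00663%). DESeq2 and edgeR on the recovered reads called 0 as well. In WT mice, 1 member, Ngfr, had an unadjusted p under 0.05 (4.04% of all genes), and 3 did not overlap (31.8%), Ngfr and Sort1 being higher and Ntrk3 lower with E2. In Het-Met mice 0 had such a p (5.45%) and 1, Ntf3, did not overlap (10.3%). Over both genotypes 0 had such a p (3.22%) and 0 were separate (0.318%). For the interaction, 0 were called (0.0729%) and 2, Ntf3 and Ngfr, had an unadjusted p under 0.05 (5.42%). The widest E2 interval over both genotypes was that of Ngfr, −0.08 to 0.42, and that of Sorcs2 was the narrowest, −0.09 to 0.10.

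**Figure D4:**
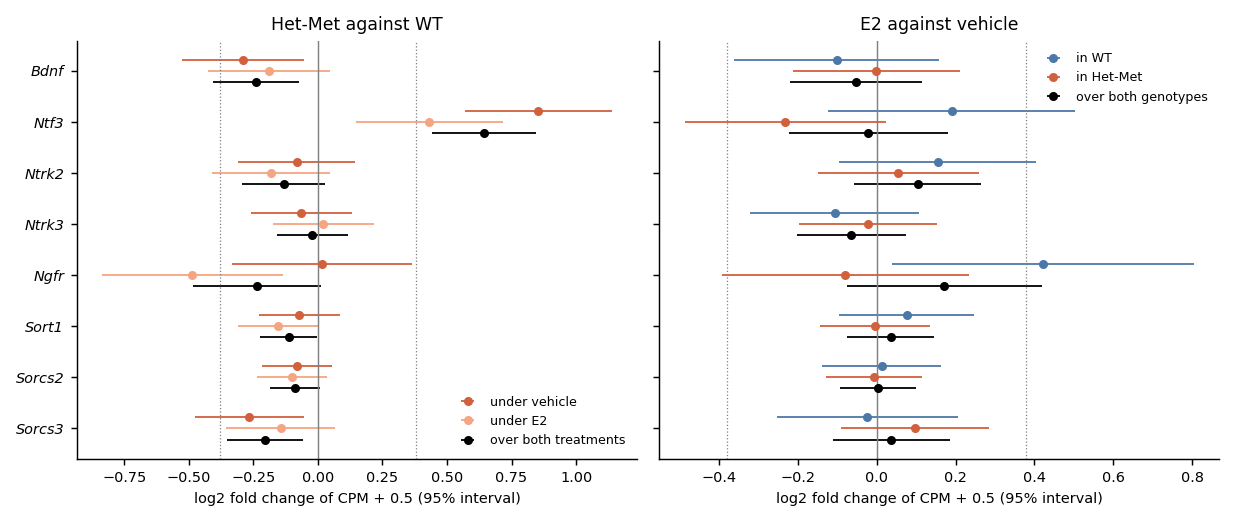
Log2 fold changes of CPM + 0.5 with 95% intervals for the 8 genes, Het-Met against WT on the left (under vehicle, under E2 and over both treatments) and E2 against vehicle on the right (in WT, in Het-Met and over both genotypes), with dotted lines at a fold of 1.3. Ntf3 stands to the right at 0.64 over both treatments, and over both genotypes every E2 interval includes 0.

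Further ligands and receptors of the family were either scarce or not called. Ntf5 (neurotrophin-4), a further ligand of TrkB, lay between 0.0922 and 0.942 CPM, below the filter of 0.5 CPM on average. Sorl1, the sorting receptor SorLA, measured 189 to 209 CPM in E2-treated WT against 107 to 147 CPM in E2-treated Het-Met mice, a log2 difference of −0.60 (SE 0.15, adjusted p = 0.317), and −0.44 over both treatments (SE 0.11, adjusted p = 0.121). Sorcs1 measured 19.99 and 21.1 CPM in vehicle-treated WT and 13.9 to 16.5 CPM in vehicle-treated Het-Met mice, a log2 difference of −0.41 (SE 0.11, adjusted p = 0.293), and −0.27 over both treatments (SE 0.08, adjusted p = 0.135). The differences were smaller for Sorl1 under vehicle (−0.28, SE 0.15, adjusted p = 0.509) and for Sorcs1 under E2 (−0.14, SE 0.11, adjusted p = 0.629). Over both treatments, the WT and Het-Met libraries of each gene overlapped. Lower values of Sorl1 and Sorcs1 in Het-Met mice thus had the same sign as those of Sort1, Sorcs2 and Sorcs3, without passing the test.

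The pathway around the members was described with 6 lists holding 129 genes, of which 124 were tested. In all 7 comparisons, 0 genes of any list were called. The following counts use an unadjusted p under 0.05 and are read against the share of all tested genes with such a p in the same direction, which over both treatments was 9.33% for higher and 7.27% for lower levels in Het-Met mice.

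Of 20 genes known to be induced by BDNF in neurons, 11 were lower and 0 higher in Het-Met mice over both treatments, with a median log2 fold change of −0.29 where that of all genes was 0.02. The list holds immediate-early genes such as those of the Egr family, and it was chosen with earlier results of these data known. Whether BDNF signalling differed between genotypes was not tested. The count of 11 ranged from 5, without E2-treated WT replicate 2, to 16, without vehicle-treated Het-Met replicate 3. Under E2, 13 were lower (5.36% of all genes), with a median of −0.42, and that count was 3 without E2-treated WT replicate 2, 7 without E2-treated Het-Met replicate 3, 15 without E2-treated Het-Met replicate 1 and 8 with no filter on low values. Under vehicle, 4 were lower (4.83%), with a median of −0.17, and 2 without vehicle-treated WT replicate 3. Egr2, an immediate-early transcription factor, measured 2.42 to 4.21 CPM in E2-treated WT and 0.332 to 1.57 CPM in E2-treated Het-Met mice, a log2 difference of −1.45 (SE 0.34, adjusted p = 0.314).

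Vgf, a secreted neuropeptide precursor, was 197 to 213 CPM in every WT library and 154 to 193 CPM in every Het-Met library, a log2 fold change of −0.30 over both treatments (SE 0.06, adjusted p = 0.0989). Spry4, a feedback inhibitor of receptor tyrosine kinase signalling, also did not overlap between genotypes, with −0.38 (SE 0.08, adjusted p = 0.104). Egr1 gave −0.52 (SE 0.14, adjusted p = 0.126) with overlapping libraries. Fosb measured 11.6 and 13.1 CPM in E2-treated WT mice and 7.51 to 8.30 CPM in E2-treated Het-Met mice, a log2 difference of −0.60 (SE 0.17, adjusted p = 0.329).

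Of 43 Trk signalling genes, 5 were higher and 11 lower in Het-Met mice over both treatments, with a median of −0.03. The count of 11 was 4 without E2-treated WT replicate 1, 5 without vehicle-treated WT replicate 3 or vehicle-treated Het-Met replicate 1, 7 without E2-treated WT replicate 2 or E2-treated Het-Met replicate 3, and 6 with no filter on low values. The count of 5 was 2 without E2-treated WT replicate 2, and 3 without E2-treated WT replicate 1, vehicle-treated WT replicate 3 or E2-treated Het-Met replicate 3. Rap1a, a small GTPase of sustained ERK signalling, measured 17.7 to 18.65 CPM in WT and 20.7 to 25.4 CPM in Het-Met mice, with 0.28 (SE 0.07, adjusted p = 0.122). Mapk3, which encodes ERK1, gave 0.21 (SE 0.05, adjusted p = 0.126) and was likewise higher in all 6 Het-Met libraries. Cbl, a ubiquitin ligase that removes activated receptors, gave −0.52 (SE 0.13, adjusted p = 0.126) with overlapping libraries.

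Of 21 regulators of Bdnf transcription, 1 was higher and 5 lower over both treatments, with a median of −0.10, and the 5 became 1 without vehicle-treated WT replicate 3 or E2-treated WT replicate 1, 2 without vehicle-treated Het-Met replicate 1, 3 without E2-treated WT replicate 2 or E2-treated Het-Met replicate 2, and 2 with the replicate number as a block. Mef2c, an activity-dependent transcription factor, had E2 values of opposite sign in the genotypes. It measured 203 and 214 CPM in vehicle-treated WT against 168 and 175 CPM with E2, and 147 to 165 CPM in vehicle-treated Het-Met against 177 to 244 CPM with E2. Its interaction was 0.64 (SE 0.15, adjusted p = 0.148), which did not pass. Usf1, an E-box factor, gave 0.18 (SE 0.06, adjusted p = 0.167) and the calcium channel subunit gene Cacna1c −0.16 (SE 0.05, adjusted p = 0.156). The estrogen receptor gene Esr1 gave −0.11 and Esr2 −0.22 between genotypes, with unadjusted p of 0.544 and 0.316 from limma.

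Of 21 genes of p75 and sortilin signalling, 1 was higher and 2 lower, with a median of 0.02. The 1 was Ngfrap1 (the p75-associated protein now named Bex3), at 181 to 195 CPM in WT and 208 to 244 CPM in Het-Met mice (log2 fold change 0.20, SE 0.05, adjusted p = 0.126). The 2 were Zfp369 (−0.35, SE 0.12, adjusted p = 0.173) and Trio (−0.16, SE 0.06, adjusted p = 0.191). The count of 1 was 4 without vehicle-treated WT replicate 1 and 2 without E2-treated WT replicate 1, vehicle-treated Het-Met replicate 1 or 3, or E2-treated Het-Met replicate 1. Of 19 tested genes that cut or release neurotrophins, 0 were higher and 2 lower, namely Pcsk1, which encodes prohormone convertase 1 (−0.36, SE 0.11, adjusted p = 0.146), and Htt (−0.14, SE 0.06, adjusted p = 0.284). Without vehicle-treated Het-Met replicate 3 the 0 became 3, and without any 1 of vehicle-treated WT replicate 3, E2-treated WT replicate 1, vehicle-treated Het-Met replicates 1 and 2, and E2-treated Het-Met replicate 1 the 2 became 1. Cadps2, a dense-core vesicle priming factor, measured 99.7 and 103 CPM in E2-treated WT against 72.4 to 88.0 CPM in E2-treated Het-Met mice (−0.32, SE 0.11, adjusted p = 0.343).

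**Figure D5:**
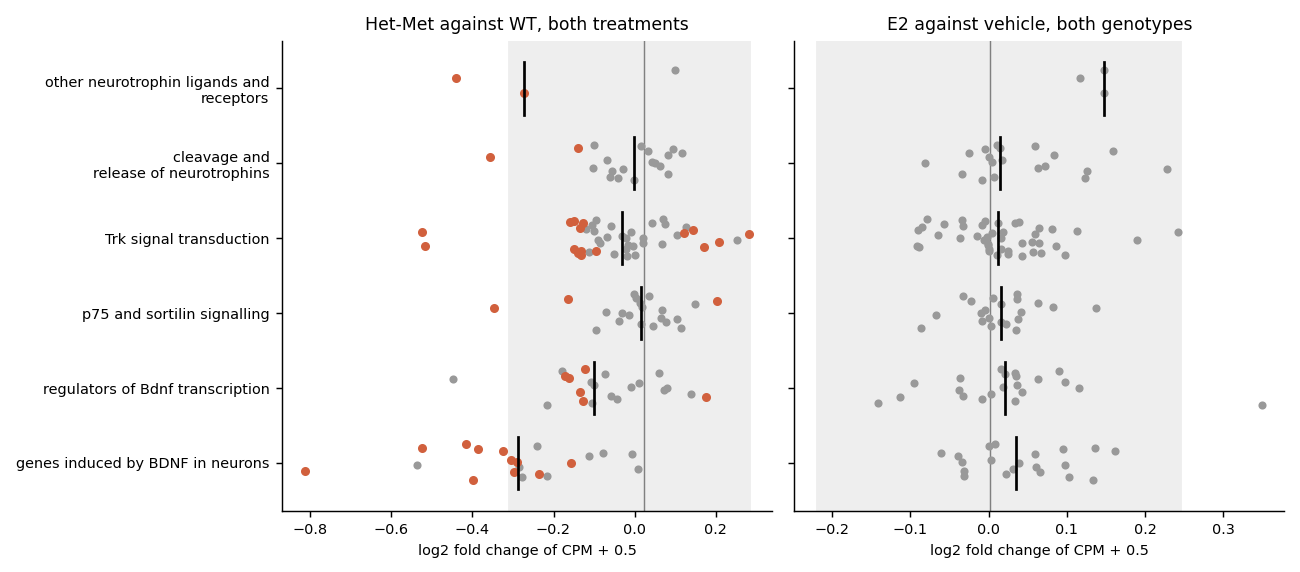
Log2 fold change of CPM + 0.5 of each tested gene in 6 pathway lists, Het-Met against WT over both treatments (left) and E2 against vehicle over both genotypes (right), with black lines at list medians, grey bands over the central 95% of all genes tested, a grey line at their median and orange points at unadjusted p under 0.05. The list of genes induced by BDNF has 11 orange points, all below 0, and the right panel has none.

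With E2 over both genotypes, 0 genes in any of the 6 lists had an unadjusted p under 0.05, where 3.22% of all genes tested did, and the medians lay between 0.01 and 0.15. In WT mice, the genes induced by BDNF had a median of 0.15 with E2 and 18 of 20 had a positive value, but only Fosb reached an unadjusted p under 0.05 (0.44, SE 0.18, adjusted p = 0.9999). In Het-Met mice their median was −0.08 and 12 of 20 were negative. The interaction had 2 of 20 with an unadjusted p under 0.05 (5.42% of all genes tested), Egr2 (−1.27, SE 0.47, adjusted p = 0.711) and Fosb (−0.55, SE 0.23, adjusted p = 0.837). That count was 0 without vehicle-treated WT replicate 3, without E2-treated WT replicate 2 or with no filter on low values, and 6 without E2-treated WT replicate 1. It was 4 without E2-treated Het-Met replicate 1, and 1 with a filter of 2 CPM or without vehicle-treated WT replicate 1, vehicle-treated Het-Met replicate 3 or E2-treated Het-Met replicate 2. The fold changes with E2 in WT mice, with E2 over both genotypes and in the interaction rest on the 2 E2-treated WT libraries. So do the genotype fold changes under E2 and over both treatments. Those with E2 in Het-Met mice and those between genotypes under vehicle do not. Choroid plexus markers in these 2 libraries summed to 1888 to 2477 CPM against 258 to 1538 CPM in E2-treated Het-Met mice. The part of those markers was not tested.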

How the data were processed

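RNA from the ventral hippocampi was sequenced by the authors as 75-bp single-end reads from TruSeq Stranded libraries, trimmed, filtered and aligned to mm10 with TopHat2, and the submitters' processing notes also list DESeq and DESeq2. The annotation and the strand setting of the counting are not given in the sources used here. The deposited file holds CPM of 24421 genes in 10 libraries, and the authors scaled each library to its reads on genes. All values were whole multiples of 1 read (100% within the tolerance of 0.01 reads), so reads were recovered from the CPM for the count tests.

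Groups were taken from the labels. The main test was limma 3.58.1 (R 4.3.3) on log2(CPM + 0.5) over all 10 libraries with 4 group means and a mean-variance trend, for 15081 genes averaging at least 0.5 CPM, with Benjamini-Hochberg adjustment over all of them. It estimates the spread from 6 residual degrees of freedom with a prior of 8.9, and fold changes on this scale understate those of low genes. Calls needed an adjusted p under 0.05 and a fold above 1.3. A total of 7 comparisons gave 56 tests of members, and all 8 members passed the filter. The procedure was tested on simulated data in which genes varied independently, with the same spread setting for every gene. That run does not cover variation shared by genes, such as that of the choroid plexus markers. Within every group, libraries varied beyond sampling noise. Alternatives were edgeR 4.0.16 with a quasi-likelihood test, DESeq2 1.42.0, other pseudocounts, filters and scalings, the replicate number as a block, the compared libraries alone, and omission of each library. Gene positions and exon lengths came from GENCODE vM21 (GRCm38), promoters from RefSeq.

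The genes named are the members, the 5 nearest profiles of each ligand, and from each pathway list any gene called and up to 3 with the smallest unadjusted p under 0.05 in each comparison; Esr1 and Esr2 were added after their values were seen, and some genes that this rule names are not reported here. The members and lists were chosen with earlier results of these data known. Mice of each group came from several litters, per the study's methods, and p-values measure the spread between pools. Intervals for counts cover counting error only.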

Additional observations from a re-analysis of the deposited data

How the results depend on the processing

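The call of Ntf3 between genotypes over both treatments was kept with pseudocounts of 0.1 and 1, with a filter of 2 CPM, with median-of-ratios scaling, and with edgeR (adjusted p = 0.0263) and DESeq2 (adjusted p = 0.000687). It was lost with no filter (0 members called, adjusted p = 0.0533) and with the replicate number as a block (0 members called, log2 fold change 0.641, adjusted p = 0.0738). Leaving out 1 library gave 0 to 1 members called, with log2 fold changes of 0.59 to 0.695. Where an omission left a group with 1 library, that library was assumed to vary like the others. The correlation of same-numbered deviations from group means was between −0.172 and 0.0826 (12 pairs, median −0.0196). For differently numbered libraries it was between −0.151 and 0.172 (25 pairs, median 0.0157). The 2 libraries of each WT group deviate equally in opposite directions, so these correlations cannot decide whether the replicate numbers pair the libraries. The block changed no other member's call. DESeq2 called 1 member under vehicle, Ntf3. With unadjusted p under 0.05 in place of the adjusted p and the same fold limit, the members that passed numbered 1 with E2 in WT, 1 for genotype under vehicle, 2 for genotype in E2-treated mice and 2 in the interaction. The causes were not tested.

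Fold changes that turned sign lay between −0.102 and 0.155 as reported, and none had been called. For Ngfr between genotypes under vehicle the log2 fold change was −0.00384 with median-of-ratios scaling and −0.00528 with DESeq2. For Ntrk3 under E2 it was −0.00377 with that scaling, −0.000546 with edgeR, −0.00361 with DESeq2 and −0.00539 with the block. With the block, E2 gave 0.0825 for Sorcs3 in WT and −5.63e-05 for Sorcs2 over both genotypes. When 1 library was left out, E2 in WT ranged from −0.27 to 0.0672 for Bdnf, −0.0154 to 0.324 for Ntrk2, −0.0118 to 0.0367 for Sorcs2 and −0.0473 to −5e-05 for Sorcs3. E2 in Het-Met ranged from −0.0549 to 0.0806 for Bdnf, −0.00138 to 0.166 for Ntrk2, −0.0831 to 0.0667 for Ntrk3, −0.0609 to 0.0316 for Sort1 and −0.00343 to 0.181 for Sorcs3. E2 over both genotypes ranged from −0.136 to 0.0329 for Bdnf, −0.0738 to 0.0317 for Ntf3, −0.00918 to 0.0151 for Sorcs2 and −0.0135 to 0.0789 for Sorcs3. The genotype difference ranged from −0.253 to 0.0871 for Ntrk2 and −0.062 to 0.0912 for Ngfr under vehicle, from −0.0627 to 0.103 for Ntrk3 under E2, and from −0.0662 to 0.0194 for Ntrk3 over both treatments. The interaction ranged from −0.0686 to 0.269 for Bdnf, −0.27 to 0.0702 for Ntrk2 and −0.0433 to 0.00529 for Sorcs2.

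Depth limits Ngfr most, at 44 to 86 reads per library, followed by Ntf3 at 93 to 205.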
